A study of Mus musculus with 6 samples.

Results

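Brown preadipocytes are the committed precursor cells of brown adipose tissue, the fat that burns substrates to produce heat. The comparison described here is between 2 libraries of an immortalized mouse line of such cells, each made by bulk RNA sequencing at day 0, before adipogenic induction. The cells of the FGF8 library had received 5.5 nM recombinant fibroblast growth factor 8 (FGF8) for 48 h, and those of the untreated library had been left without it. Both libraries share a wild-type Bl6N background, an origin in the stromal vascular fraction of interscapular brown fat (iBAT) and immortalization with SV40 large T antigen, a viral protein known to bind p53 and RB proteins. The growth notes in the labels describe primary white preadipocytes, which goes against the sample titles, and the titles were followed. A gene entered the comparison when its mean over the pair was at least 20 normalized counts, which kept 12657 of the 26264 genes listed. The question is which cellular functions differed after 48 h of FGF8.

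FGF8 is a secreted ligand that binds FGF receptors together with heparan sulfate proteoglycans. The receptors are tyrosine kinases, and their best known route into the nucleus is the RAS-ERK cascade, which raises ETS and AP-1 transcription factors and its own inhibitors of the Sprouty and dual-specificity phosphatase families. In mesenchymal cells FGF signals are known for promoting growth and for acting against contractile and matrix-producing states. Activating transcription factor 4 (ATF4), the other regulator that recurs below, is translated when amino acids are short or the integrated stress response is active, and its known targets import and make amino acids and charge transfer RNAs. Interferon-stimulated genes encode antiviral effectors that are known to be transcribed through STAT and IRF factors bound to the interferon-stimulated response element (ISRE).

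The series holds 6 libraries, 1 for each treatment at day 0, day 3 and day 9, the last being labelled by its 7 days on differentiation medium after 2 days of induction. The untreated day 0 library had 16403254 counts and the FGF8 day 0 library 18083221. Every difference below is between 2 libraries, with no replicate check, so that culture, harvest and library differences cannot be told apart from FGF8. Differences are given as the log2 of the ratio of normalized counts after adding 1, or as a plain ratio ("-fold"), and the 95% exact interval beside a value covers counting error only. At this depth the median width of that interval was 1.62 log2 units for genes at a mean of 20 to 100 normalized counts and 0.0824 above 10000. In bulk RNA, fewer cells of a type and less RNA per cell cannot be told apart.

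Both libraries carried mesenchymal and brown lineage markers, though some of them at much lower levels with FGF8. Prrx1, a homeobox factor of limb and trunk mesenchyme, stood at 22537 and 15355 normalized counts (untreated, then FGF8). Ebf2, a determinant of brown precursors, stood at 2315 and 2500.3, and Zic1 and En1, which mark the dermomyotomal origin of brown fat, at 149.8 and 136 and at 159 and 125. Of the other precursor markers, Pdgfra stood at 68261 and 9680, Ly6a at 28641 and 1516 and Pdgfrb at 8731 and 3314. Cd34 and Thy1 stayed within 2-fold. Among genes of mature adipocytes, Adipoq, Plin1 and Cidec did not exceed 3 counts in either library. Lpl and Fabp4 were present in both, Lpl at 8251 and 2025 normalized counts and Fabp4 at similar levels with and without FGF8. Of the markers of other cells, none of 10 for lymphocytes and mast cells and none of 10 for skeletal muscle reached a mean of 20, against 3 of 12 for macrophages. These were the receptor gene Csf1r at 45.5 and 5.12, the lysosomal gene Cd68 at 39.7 and 35.8 and the kinase gene Mertk at 123 and 256. Of 8 Schwann cell markers 5 could be compared and 3 were lower, among them S100b, a calcium-binding protein, at 192 and 30.7. Of 9 mural cell markers 4 could be compared, 2 higher and 1 lower, with the proteoglycan gene Cspg4 at 286 and 713. Of 10 endothelial markers 3 could be compared and 2 were lower, Kdr and Tek, and of 9 mesothelial and epithelial markers 3, 1 higher (the adhesion gene Epcam, at 10.3 and 110.1) and 1 lower. The part of these cell types in the results was not tested. The pan-leukocyte gene Ptprc had 0 counts in the untreated library and 1 in the FGF8 library.

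At least 2-fold higher values in the FGF8 library were found for 920 genes, 7.27% of those compared, and at least 2-fold lower values for 1369 genes, 10.8%. At 4-fold the counts were 250 genes (1.98%) and 560 genes (4.42%). The other 10368 genes lay within 2-fold, and the median over all genes compared was 0.05 on the log2 scale. Large changes were thus more often decreases, which made up 59.8% of the genes past 2-fold and 69.1% of those past 4-fold. The counting interval lay wholly beyond 2-fold for 546 of the higher and 999 of the lower genes. Genes with few counts passed 2-fold more often, with 16.2% higher and 21.8% lower at a mean of 20 to 100 against 4.21% and 6.60% at 1000 to 3000. Above 10000 normalized counts 21 of 301 genes were higher and 59 lower.

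**Figure D1:**
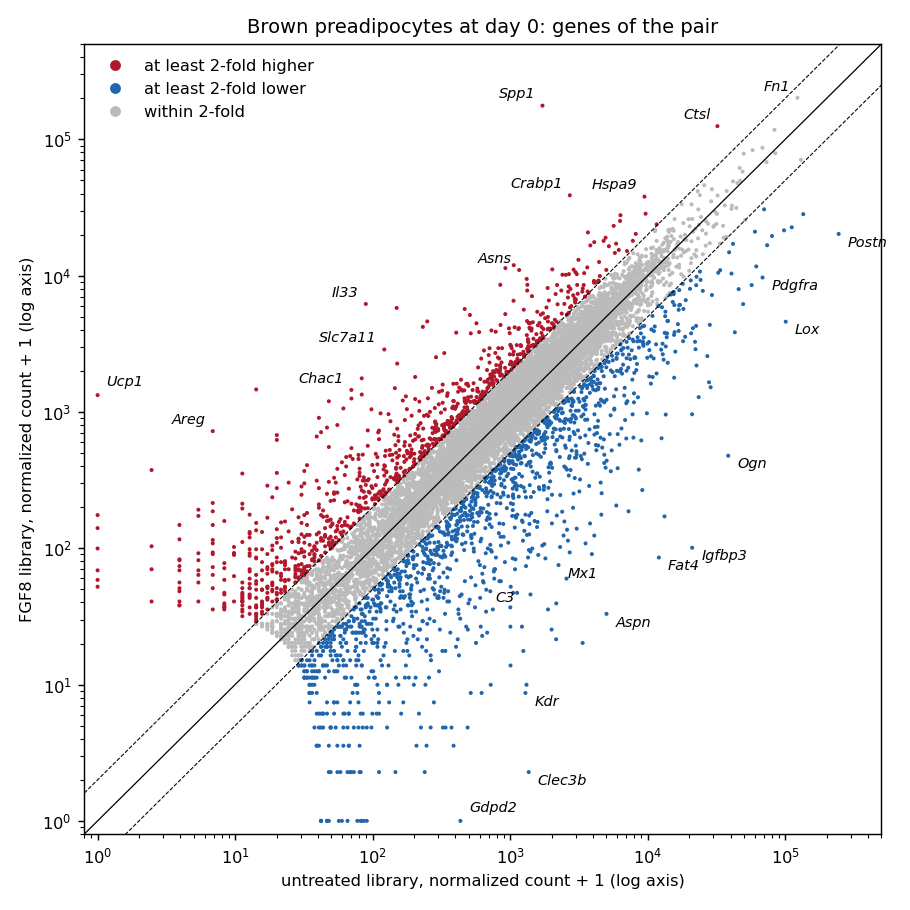
Each of the 12657 genes at day 0 by its normalized count plus 1 without FGF8 (x axis, log scale) and with FGF8 (y axis, log scale). Each point is a gene, the solid line marks equal values and the dashed lines 2-fold. Spp1 (1714 and 176491) stands farthest above the line among abundant genes, and Postn, Lox and Ogn stand far below it.

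Once genes averaging under 100 normalized counts were set aside, the 15 largest increases included secreted signals, surface proteins and enzymes. Ucp1, the uncoupling protein of brown fat mitochondria, had 0 counts in the untreated library and 1037 in the FGF8 library, at least 301-fold higher against a floor of 3 counts. Areg, which encodes the EGF receptor ligand amphiregulin, went from 5.88 to 722 normalized counts (123-fold). Il33, an alarmin cytokine stored in the nucleus of stromal cells, went from 88.1 to 6194 normalized counts (70.3-fold), a log2 difference of 6.12 (95% counting interval 5.77 to 6.53). Rbfox1, a splicing regulator best known from neurons and muscle, had 1 count in the untreated library and 292 in the FGF8 library, a log2 difference of 7.25 (95% counting interval 5.50 to 13.30). Sema7a, a membrane-anchored semaphorin, went from 148 to 5792 normalized counts (39-fold). The surface and adhesion genes in this group were Cd53, a tetraspanin of leukocytes (35.3-fold), and Cass4, a scaffold of focal adhesions (36.4-fold). Its enzymes were Acsbg1, an acyl-CoA synthetase (34.2-fold), Car6, a secreted carbonic anhydrase (32.6-fold), and Ndst3, which sulfates heparan sulfate (22.8-fold). The zinc finger factor Bnc1 was 25.4-fold higher, and AI593442, a gene of no established role, 110.5-fold. The remaining members Spp1, Slc7a11 and Etv4 are described with their functions below.

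The 15 largest decreases included many secreted and surface proteins of stromal cells. Clec3b, which encodes the plasminogen-binding protein tetranectin and marks interstitial progenitors, had 927 counts in the untreated library and 1 in the FGF8 library, a log2 difference of -9.22 (95% counting interval -15.36 to -7.57). Gdpd2, a membrane glycerophosphodiester phosphodiesterase, had 295 counts and 0, at least 113-fold lower. Igfbp3, an IGF-binding protein, went from 21024 to 99.9 normalized counts (211-fold). Fat4, an atypical cadherin of the Hippo and planar polarity systems, went from 12036 to 84.5 normalized counts (142-fold). Kdr, the receptor of VEGF-A on endothelial cells, went from 1288 to 7.68 normalized counts (168-fold). Of the other endothelial markers Tek, the angiopoietin receptor, went from 326 to 42.2 normalized counts (7.72-fold), and Pecam1, Cdh5 and Cldn5 did not exceed 10 counts in either library. The group also held Egfl6 (175-fold lower), an EGF-like secreted protein, and Aoc3, a surface amine oxidase, at 2155 normalized counts without FGF8 and 20.5 with it. Kcnj2, an inward rectifier potassium channel, had 162 counts and 1, and Npy1r, a neuropeptide Y receptor, 254 and 3. The epithelial factor Trp63 had 333 counts and 3, Gm10499 had 263 and 2, and Ddit4l, an inhibitor of mTOR signaling, was 82.1-fold lower. Aspn, Ogn and Sfrp4 belong to the matrix and WNT groups below.

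Ranked by the difference in normalized counts rather than by ratio, matrix genes led the decreases. The 8 largest falls in normalized counts belonged to Postn, Col1a2, Lox, Sparc, Fstl1, Thbs2, Col3a1 and Pdgfra, and every one of these but the receptor Pdgfra encodes a secreted protein. Postn, the matricellular protein periostin, took up 1.01% of the untreated library and 0.0873% of the FGF8 library. The 8 largest gains belonged to Spp1, Ctsl, Fn1, Crabp1, Eef1a1, Hsp90ab1, Hspa9 and Lgals1. Ctsl, a lysosomal protease that can be secreted, went from 32090.2 to 124832 normalized counts (3.89-fold). Crabp1, a cytosolic retinoic acid-binding protein, went from 2710.1 to 38806 normalized counts (14.3-fold). Fn1, which encodes fibronectin, went from 122503 to 201673 normalized counts (1.65-fold), and so was below 2-fold although its gain in counts was among the largest. Eef1a1, Hsp90ab1 and Lgals1 were between 1.4-fold and 1.57-fold higher.

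Of the 15 inhibitors of RAS-ERK signaling that could be compared, 8 were at least 2-fold higher and 1 lower. These shares compare with 7.27% and 10.8% of all genes, as do those of every list below. Spry4, of the Sprouty family, and Dusp6, a phosphatase of ERK, were 17.6-fold and 15.1-fold higher. The phosphatase gene Dusp4 went from 96.9 to 1045 normalized counts (10.8-fold) and Rasa1, a RAS GTPase activator, from 2670.4 to 10253 normalized counts (3.84-fold). Il17rd, which encodes the FGF receptor antagonist SEF, was the member that was lower, from 618 to 182 normalized counts (3.4-fold). Spry1 and Spry2 stood at 609.6 and 516 and at 2139 and 2414, so the Sprouty genes differed among themselves. In the list of ETS, AP-1 and EGR factors, 7 of 24 were higher and 1 lower. The PEA3 group of ETS factors, known effectors of FGF signaling, led it, with Etv4 from 82.3 to 1763 normalized counts (21.4-fold), Etv5 from 288 to 2518 normalized counts (8.75-fold) and Etv1 from 70.5 to 451 normalized counts (6.39-fold). The AP-1 family member Atf3, also a stress-response gene, went from 47 to 552 normalized counts (11.7-fold).

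FGF receptor genes differed among themselves. Fgfr1, which encodes a receptor of FGF8, had 8239 normalized counts in the untreated library and 7921 in the FGF8 library, a log2 difference of -0.06 (95% counting interval -0.11 to -0.00). Fgfr2 was 2.75-fold lower, from 411 to 149.8 normalized counts, while Fgfr3 stood at 35.3 and 65.3. Over 14 receptors and co-receptors compared, 1 was higher, the glypican gene Gpc1 (2.11-fold), and 3 were lower. Among 8 FGF ligands, Fgf21, a hormone of metabolic stress, had 2 counts in the untreated library and 64 in the FGF8 library, a log2 difference of 4.40 (95% counting interval 2.89 to 7.88). Fgf1 was 4.56-fold higher and Fgf10, a stromal ligand of the receptor FGFR2b, went from 1196 to 285 normalized counts (4.19-fold).

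Other growth factor families held both higher and lower members. Of the EGF family, Areg, Ereg and Hbegf, which all bind the EGF receptor, were higher, Ereg from 54.3 to 800.1 normalized counts (14.7-fold) and Hbegf from 165 to 1211 normalized counts (7.36-fold). The receptor gene Egfr itself was lower, from 7980.3 to 1933 normalized counts (4.13-fold), and so was Nrg1, a ligand of the ERBB3 and ERBB4 receptors, from 1403 to 93.5 normalized counts (15-fold). In the IGF system 8 of 14 members were lower and 2 higher. Igf1, a growth factor that stromal cells secrete, went from 13226 to 170.3 normalized counts (77.7-fold), and the binding protein genes Igfbp3 and Igfbp5 were 211-fold and 5.9-fold lower. In the PDGF and VEGF group, 4 of 20 were higher and 9 lower. Vegfa, the main angiogenic factor, went from 978 to 4102 normalized counts (4.19-fold), whereas Vegfd went from 4593 to 175 normalized counts (26.2-fold).

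The WNT ligands and their secreted antagonists were lower as a group, 10 of 14 by at least 2-fold and 0 higher, with a median log2 difference of -2.11. The secreted frizzled-related proteins, which bind WNTs outside the cell, made up several of them. Sfrp4 had 893 counts and 7, Sfrp1 was 14.1-fold lower, and Sfrp2 went from 6224 to 574 normalized counts (10.9-fold). The ligand gene Wnt4 had 49 counts and 1, Wnt10b, an inhibitor of adipogenesis, went from 119 to 15.4 normalized counts (7.74-fold), and Rspo2, which enhances WNT signals, from 1366 to 96 normalized counts (14.2-fold). Among 18 WNT receptors and target genes 7 were lower and 2 higher, with Lgr5, an R-spondin receptor, from 79.3 to 2.56 normalized counts (31-fold).

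In the BMP pathway 3 of 21 members were higher and 9 lower. Bmp2 had 0 counts in the untreated library and 40 in the FGF8 library, at least 11.6-fold higher, while Bmp4 had 75 and 5. Grem1, a secreted BMP antagonist, went from 516 to 3766 normalized counts (7.31-fold), and the antagonist gene Chrdl1 went the other way, from 4935 to 389 normalized counts (12.7-fold). The ID genes are transcriptional targets of BMP signaling, and Id2, Id3 and Id4 were 3.24-fold, 2.89-fold and 15.9-fold lower. Of 20 TGF-beta and activin genes 4 were higher and 5 lower. Fst, which encodes the activin trap follistatin, went from 1767 to 106 normalized counts (16.6-fold), and Gdf15, a stress hormone, had 8 counts and 68.

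Enzymes of amino acid synthesis were higher. Of 23 enzymes of serine, glycine and one-carbon metabolism, 12 were higher by 2-fold or more and 1 lower, with a median log2 difference of 1.58. The 3 steps from 3-phosphoglycerate to serine moved together, Phgdh from 1075 to 4176 normalized counts (3.88-fold), Psat1 from 4079 to 17598 normalized counts (4.31-fold) and Psph from 707 to 2932 normalized counts (4.15-fold). In one-carbon metabolism several mitochondrial enzymes differed more than their cytosolic counterparts. Shmt2 and Mthfd2, the mitochondrial serine hydroxymethyltransferase and methylenetetrahydrofolate dehydrogenase, were 7.18-fold and 11.3-fold higher. The cytosolic Shmt1 and Mthfd1 were 1.99-fold and 1.49-fold higher. The formyltetrahydrofolate dehydrogenases divided in the same way, the mitochondrial Aldh1l2 going from 3671 to 20724 normalized counts (5.65-fold) and the cytosolic Aldh1l1 from 861 to 288 normalized counts (2.99-fold). Asns, which makes asparagine, went from 1160.4 to 10988 normalized counts (9.47-fold), Cth, which makes cysteine from cystathionine, from 231 to 4204 normalized counts (18.2-fold), and Gpt2, a mitochondrial alanine transaminase, from 508 to 5140.1 normalized counts (10.1-fold).

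Amino acid transporters were split, with 9 of 20 higher and 4 lower. Slc7a11, the cystine-glutamate exchanger, went from 120.4 to 2870.3 normalized counts (23.8-fold), a log2 difference of 4.56 (95% counting interval 4.26 to 4.91). The cationic amino acid carriers Slc7a1 and Slc7a3 were 6.19-fold and 17.2-fold higher, and Slc7a5, the leucine carrier LAT1, 5.49-fold. Slc3a2, the heavy chain that LAT1 and the cystine exchanger share, went from 2534 to 10123 normalized counts (4-fold), and the glycine carrier Slc6a9 from 614 to 2462 normalized counts (4.01-fold). The glutamate carrier Slc1a3 had the largest decrease of the list, from 10842 to 1803 normalized counts (6.01-fold).

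The genes of the ATF4 and unfolded protein response list, 24 in all, had 11 higher and 1 lower members, and those higher were mostly on the ATF4 side. Atf4 itself went from 4932 to 18958 normalized counts (3.84-fold). Chac1, which degrades glutathione, and Trib3, a pseudokinase that restrains ATF4 and AKT, were 21-fold and 18.6-fold higher. Ddit3, which encodes CHOP, went from 1253 to 5623 normalized counts (4.49-fold), Ppp1r15a, a phosphatase subunit that lets translation resume, from 567 to 4468 normalized counts (7.88-fold), and Sesn2, a leucine sensor, from 349.6 to 1369.8 normalized counts (3.92-fold). Chaperones of the endoplasmic reticulum, another part of the unfolded protein response, did not share the difference. The chaperone gene Hspa5, which encodes BiP, had 26464 normalized counts in the untreated library and 25098 in the FGF8 library. Of 14 such chaperones and folding enzymes, a list added after their values were seen, 0 were higher and 1 was lower, Sdf2l1 (3.27-fold), with a median of -0.05. Sdf2l1 is also the lower member of the list above, so the lists overlap.

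A composite element bound by C/EBP-ATF heterodimers, TGATGNAAT, is a known docking site of ATF4. It was searched on both strands of the promoters, taken as 250 bases before and 50 bases from the start of the canonical GENCODE transcript in GRCm39. The element was present in 62 of 12364 promoters (0.501%), in 15 of 894 of the genes at least 2-fold higher (1.68%) and in 6 of 1340 of those lower (0.448%). Among carriers, 24.2% were higher in the FGF8 library. In the lists just described few promoters held it. They were 1 of 24 for the ATF4 and unfolded protein response genes (4.17%) and 1 of 23 for the one-carbon enzymes (4.35%). For the amino acid transporters they were 0 of 20. The first 2 shares are above the 0.501% of all promoters, but each rests on 1 gene with the element. The windows shown are those of the 3 higher genes in the gene lists that carry it before the start, with chromosomes 8 and 18 left out. They are Fgf21, Pycr1, which encodes the last enzyme of proline synthesis and went from 677 to 2028 normalized counts (2.99-fold), and Ddit3. Each is written 5′ to 3′ on the strand of the gene with up to 35 bases on either side, and the capitals mark the element. Only 3 of the 20 cytosolic tRNA synthetase genes described next had a promoter to search.
Fgf21, chr7:45265011-45265089, minus strand: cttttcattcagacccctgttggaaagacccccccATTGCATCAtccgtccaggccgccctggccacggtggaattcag
Pycr1, chr11:120534634-120534712, minus strand: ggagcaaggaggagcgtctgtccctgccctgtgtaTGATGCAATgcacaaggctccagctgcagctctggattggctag
Ddit3, chr10:127126325-127126403, plus strand: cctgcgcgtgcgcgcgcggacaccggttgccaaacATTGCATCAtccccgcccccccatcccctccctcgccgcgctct
In Fgf21 and Ddit3 the element lies on the strand opposite the gene, 140 and 200 bases before the start, and in Pycr1 on the strand of the gene, 79 bases before it.

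Transfer RNA synthetases attach amino acids to their tRNAs, and the cytosolic enzymes were higher almost throughout. All 20 of the 20 cytosolic genes compared lay above 0 and 14 passed 2-fold. Their median log2 difference was 1.51, against 0.05 for all genes. The leucyl enzyme Lars went from 3822 to 16644 normalized counts (4.35-fold), the isoleucyl enzyme Iars from 3132 to 13048 normalized counts (4.17-fold), and the asparaginyl enzyme Nars from 6284 to 25167 normalized counts (4-fold). The genes least changed were Farsa at 1.06-fold, Qars at 1.13-fold and Kars at 1.16-fold. The subunits of the phenylalanyl enzyme thus differed, since Farsb was 2.39-fold higher. The mitochondrial synthetases, a list of 17 added after the values were seen, had 0 members higher and 1 lower, with a median of 0.21. The lower one was Lars2, from 13033 to 2416 normalized counts (5.4-fold).

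**Figure D2:**
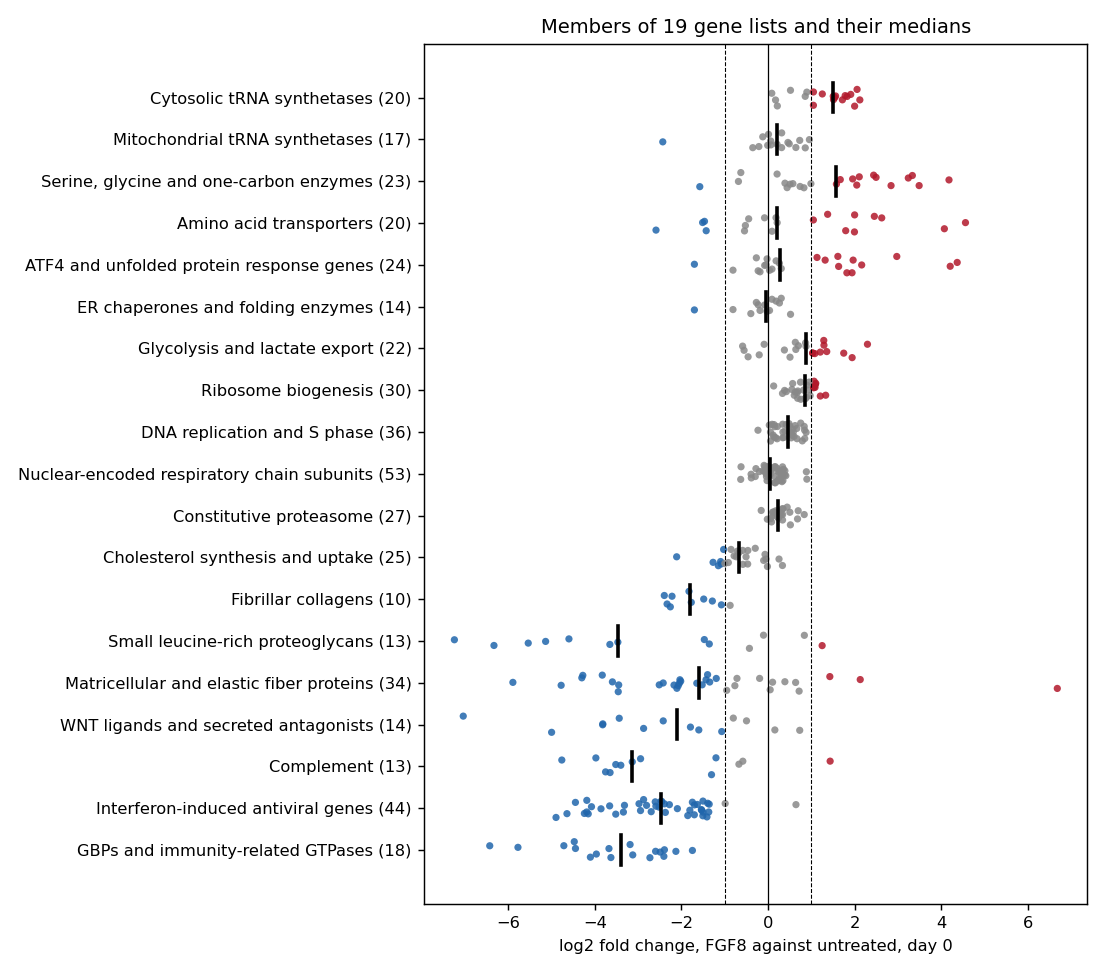
Log2 fold change (x axis) of each member of 19 gene lists (rows, number of members compared in parentheses) at day 0, with the list median as a black bar and 2-fold as dashed lines. Cytosolic tRNA synthetases, one-carbon enzymes and ribosome biogenesis genes lie to the right, DNA replication and respiratory chain genes lie within 2-fold, and matrix, WNT, complement and interferon lists lie to the left.

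Genes that build ribosomes were higher by a small and even amount. All 30 of 30 ribosome biogenesis genes lay above 0, 9 by at least 2-fold, with a median of 0.86. Rrs1 and Wdr12, assembly factors of the large subunit, were 2.53-fold and 2.31-fold higher, and the abundant nucleolar gene Ncl went from 17631 to 33421 normalized counts (1.9-fold). Structural proteins of the ribosome differed less, since of 49 genes whose symbols begin with Rpl and 45 with Rps, 1 and 2 passed 2-fold and their medians were 0.25 and 0.22. In the chaperone list, 2 of 20 were higher (10%) and 3 lower (15%), not far from the shares of all genes. Both higher genes serve mitochondrial protein folding. Hspa9, the mitochondrial HSP70, went from 9458 to 37952 normalized counts (4.01-fold), and Hspd1, the mitochondrial HSP60, from 4484 to 9926 normalized counts (2.21-fold). The 3 lower members were the small heat shock gene Cryab (10.9-fold) and the inducible HSP70 genes Hspa1a and Hspa1b (4.41-fold and 5.71-fold), whose near-identical sequences make the split of reads between them uncertain.

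Part of sugar metabolism was higher. Of 22 genes of glycolysis and lactate export 10 were at least 2-fold higher and 0 lower, with a median of 0.87. Slc16a3, the lactate exporter MCT4, went from 322 to 1586 normalized counts (4.93-fold), Hk2, an inducible hexokinase, from 247 to 952 normalized counts (3.86-fold), and Pgk1, phosphoglycerate kinase, from 3046 to 10249 normalized counts (3.36-fold). The glucose carrier Slc2a1 was 2.44-fold higher and Ldha, lactate dehydrogenase A, 2.31-fold. Isoenzymes differed, as Pfkl, the liver-type phosphofructokinase, was 2.45-fold higher and the muscle-type Pfkm was 1.5-fold lower. Many of these genes also respond to hypoxia, and 9 of 20 genes of the hypoxia list were higher and 1 lower. Car9, a carbonic anhydrase used as a hypoxia marker, had 3 counts in the untreated library and 134 in the FGF8 library. Ero1a, an oxidase of the endoplasmic reticulum, went from 1328 to 7774 normalized counts (5.85-fold), and Egln3, an oxygen sensor, from 67.6 to 474 normalized counts (7.01-fold). Adm, which encodes adrenomedullin, differed in the opposite direction, from 2015 to 388 normalized counts (5.2-fold).

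Several lists for cell division and energy metabolism had no member past 2-fold. None of 36 DNA replication genes and none of 30 mitosis genes passed 2-fold, with medians of 0.45 and 0.09, although 35 of the replication genes lay above 0. Mki67, a marker of cycling cells, stood at 15304 and 13628 normalized counts. The D-type cyclins were the exception in the list of 15 G1 regulators, Ccnd1 going from 849 to 4344 normalized counts (5.12-fold) and Ccnd2 from 4380.1 to 9197 normalized counts (2.1-fold). None of 53 nuclear-encoded respiratory chain subunits, 21 genes of the citric acid cycle, 22 of nucleotide synthesis or 27 of the constitutive proteasome passed 2-fold, and their medians were 0.05, 0.19, 0.38 and 0.24. Outside these lists Cox6a2, a muscle and heart subunit of cytochrome oxidase, had 6 counts and 79. The mitochondrial ribosome had none of 49 Mrpl and 29 Mrps genes past 2-fold.

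Lipid synthesis lay slightly lower. Of 25 genes of cholesterol synthesis and uptake, 23 lay below 0 and 6 passed 2-fold, with a median of -0.67. Tm7sf2, a sterol reductase, went from 711 to 164 normalized counts (4.34-fold), and Hmgcs1, which commits acetyl units to the pathway, from 10808 to 5059 normalized counts (2.14-fold). Fatty acid and triglyceride synthesis had 1 of 20 members higher, Dgat2 (2.88-fold), and 1 lower, Acss2 (2.85-fold). In fatty acid oxidation 1 of 21 was lower, Acaa2 (2.23-fold).

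**Figure D3:**
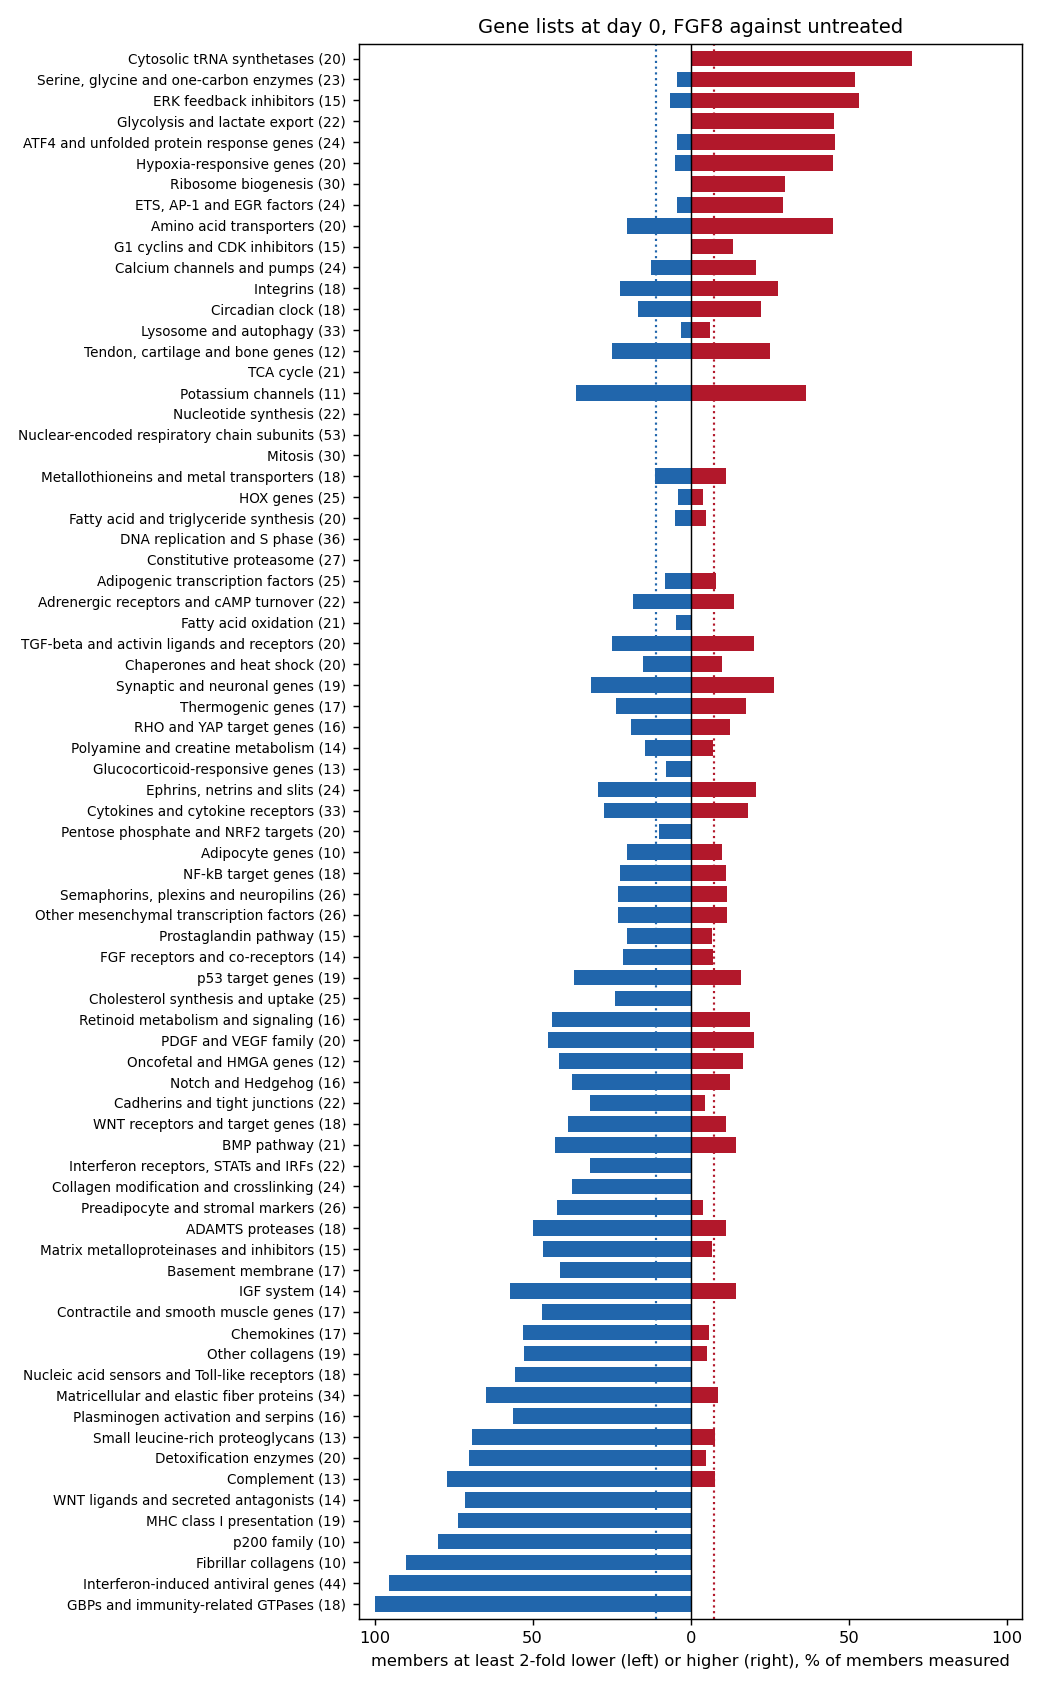
Share of the compared members of each gene list (number in parentheses, lists with at least 10) that were at least 2-fold lower (blue, left) or higher (red, right) in the FGF8 library at day 0. The dotted lines give the shares over all genes, 10.8% and 7.27%. Cytosolic tRNA synthetases lead the higher side with 14 of 20, and the interferon-inducible GTPases the lower side with 18 of 18.

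Many, though not all, genes of the extracellular matrix were lower. Of 10 fibrillar collagens 9 were at least 2-fold lower and all 10 lay below 0, with a median of -1.80. Col1a1 and Col1a2, the chains of type I collagen, went from 61456 to 11674 normalized counts (5.26-fold) and from 134974 to 28238 normalized counts (4.78-fold). Col3a1, the chain of type III collagen, was the member within 2-fold, from 129678 to 70729.6 normalized counts (1.83-fold). Among 19 other collagens 10 were lower and 1 higher. The microfibrillar chain Col6a1 went from 49335 to 6179.6 normalized counts (7.98-fold), and the fibril-associated chains Col12a1 and Col14a1 were 15-fold and 43.7-fold lower.

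Processing enzymes of collagen followed in part, 9 of 24 lower and 0 higher. Lox, which crosslinks collagen and elastin, went from 100629 to 4589.6 normalized counts (21.9-fold), a log2 difference of -4.45 (95% counting interval -4.50 to -4.41). Sparc, a collagen chaperone and matricellular protein, went from 111357 to 22604 normalized counts (4.93-fold), and the procollagen peptidases Adamts2 and Adamts3 were 5.12-fold and 29.4-fold lower. The wider ADAMTS protease list had 9 of 18 lower and 2 higher. Adamts1, a versican-cleaving protease, went from 23437 to 1283 normalized counts (18.3-fold). Adamts8 differed in the other direction, from 2.94 to 55 normalized counts, a log2 difference of 3.83 (95% counting interval 2.29 to 7.32). Matrix metalloproteinases and their inhibitors had 7 of 15 lower, and protease regulators of the serpin and plasminogen list 9 of 16.

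Small leucine-rich proteoglycans, which coat collagen fibrils, had 9 of 13 members lower and a median of -3.47, but their levels diverged. Ogn and Aspn, osteoglycin and asporin, went from 38443 to 476 normalized counts (80.7-fold) and from 5010.3 to 32 normalized counts (157-fold). Omd and Prelp were 26.3-fold and 12.9-fold lower, and Fmod had 54 counts and 1. Other abundant members differed from Ogn. Decorin (Dcn) stood at 25737 and 46078, biglycan (Bgn) at 72996 and 67939, and lumican (Lum) was 2.38-fold higher. Matricellular and elastic fiber proteins had 22 of 34 lower and 3 higher, median -1.58. Postn went from 244198 to 20207 normalized counts (12.1-fold), Thbs2, an anti-angiogenic thrombospondin, from 80007 to 19518 normalized counts (4.1-fold), and Smoc2 and Ccn5 were 67.1-fold and 19.9-fold lower. The 3 higher ones were Spp1, which encodes osteopontin (103-fold), Tnc, which encodes tenascin-C (6329 to 27735 normalized counts), and the hyaluronan synthase Has1 (2.73-fold).

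Cell attachment genes were mixed. Of 18 integrins 5 were higher and 4 lower. Itga11, a collagen receptor of fibroblasts, had 421 counts and 6, and Itga8 was 5.52-fold lower. Itga6, a laminin receptor, went from 593 to 3849.6 normalized counts (6.49-fold), and the leukocyte integrin chains Itgb2 and Itgb7 were 4.57-fold and 6.39-fold higher. Because Cd53, Itgb2 and Itgb7 are known from blood cells, 22 leukocyte genes were listed after these values were seen. Only 5 reached a mean of 20, 3 of them at least 2-fold higher, Cd53 and Itgb2 among them, while 13 had at most 3 counts in both libraries, Ptprc and Lcp1 included. Of 17 basement membrane genes 7 were lower and 0 higher, led by Nid2, a nidogen, from 7863 to 647 normalized counts (12.2-fold). Contractile genes had 8 of 17 lower and 0 higher, with Acta2, smooth muscle actin, from 1898 to 392 normalized counts (4.84-fold), and Tagln, transgelin, from 2472 to 397 normalized counts (6.23-fold). Gja1, a gap junction gene, went from 3627 to 11482 normalized counts (3.17-fold), and Cdh11, a mesenchymal cadherin, from 10538 to 2562 normalized counts (4.11-fold).

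Interferon-stimulated genes were lower almost throughout. The untreated library had Ifit1, Ifit3 and Isg15 at 28243, 27875 and 12847 normalized counts, and in the FGF8 library they stood at 4349, 1649 and 2648. Of 44 antiviral effector genes 42 were at least 2-fold lower, with a median of -2.46. The exceptions were Trim25 (-0.99) and Ifi27, which was above 0 (0.65). Mx1, a dynamin-like inhibitor of viral replication, went from 2243 to 74.3 normalized counts (30.2-fold), Oas2, a sensor-synthase of oligoadenylate, from 3804 to 151 normalized counts (25.2-fold), and Rsad2, which encodes viperin, from 4619.6 to 252 normalized counts (18.3-fold). All 18 of 18 guanylate-binding and immunity-related GTPases were lower, median -3.41, and 8 of 10 genes of the p200 family. Several of these genes have near-identical copies, among them Tgtp1 and Tgtp2, Oas1a and Oas1g, and Ifit3 and Ifit3b, so the split of reads between copies is uncertain.

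Class I antigen presentation was lower as well, in 14 of 19 members, with all 19 below 0. B2m, the shared light chain, went from 60107 to 20989 normalized counts (2.86-fold), H2-K1, a classical heavy chain, from 13812 to 3763 normalized counts (3.67-fold), and the peptide transporter gene Tap1 from 4094 to 681 normalized counts (6.01-fold). The catalytic subunits of the immunoproteasome, Psmb8, Psmb9 and Psmb10, were 4.32-fold, 5.5-fold and 3.65-fold lower, whereas none of the 27 constitutive proteasome genes passed 2-fold. Upstream, 7 of 22 interferon receptor, STAT and IRF genes were lower and 0 higher, with a median of -0.66. Ifnar1, a chain of the type I receptor, stood at 3995 and 3505 and the kinase gene Jak1 at 10959 and 10928. The transcription factor genes Stat2 and Irf7, which are themselves interferon-inducible, were 4.48-fold and 6.54-fold lower, while Irf3 stood at 630.1 and 571. Sensors of foreign nucleic acids and Toll-like receptors had 10 of 18 lower and 0 higher, with Tlr3 from 5367 to 944 normalized counts (5.69-fold) and Ifih1, which encodes MDA5, from 5698 to 1039.5 normalized counts (5.48-fold).

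The core ISRE, searched as GAAANNGAAA on both strands, was present in 3.7% of all 12364 promoters, in 8.66% of the genes at least 2-fold lower and in 3.69% of those higher. Among the 458 promoters with it, 25.3% belonged to lower genes. It was found in 21 of 44 promoters of the antiviral effector genes, 9 of 17 of the GTPases and 8 of 10 of the p200 family. The windows that follow belong to lower antiviral genes with high untreated levels and the element before the start, with chromosomes 8 and 18 left out. Each runs up to 35 bases to either side of the match nearest the start, and capitals mark every match in the window, including overlapping ones. They show the core close to the start of genes with unlike products.
Ifit1, chr19:34618169-34618248, plus strand: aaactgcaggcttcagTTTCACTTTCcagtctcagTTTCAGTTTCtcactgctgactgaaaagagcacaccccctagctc
Ifit3, chr19:34560772-34560851, plus strand: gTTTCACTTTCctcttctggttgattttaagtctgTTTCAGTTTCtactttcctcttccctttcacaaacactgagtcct
Isg15, chr4:156285304-156285376, minus strand: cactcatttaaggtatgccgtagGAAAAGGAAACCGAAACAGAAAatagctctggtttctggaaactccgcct
Usp18, chr6:121222771-121222850, plus strand: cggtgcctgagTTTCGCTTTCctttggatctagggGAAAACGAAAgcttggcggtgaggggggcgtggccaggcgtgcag
Rtp4, chr16:23428592-23428645, plus strand: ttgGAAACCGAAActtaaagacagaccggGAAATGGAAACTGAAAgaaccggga
The windows hold 2 matches in Ifit1, 2 in Ifit3, 3 in Isg15, 2 in Usp18 and 3 in Rtp4. The first base of the match nearest the start lay 67, 92, 38, 51 and 19 bases before the start, in that order. Isg15 and Usp18 encode a ubiquitin-like modifier and the protease that removes it, and Rtp4 a chaperone of surface receptors. In Ifit1 and Ifit3 the matches lie on the strand opposite the gene, and Usp18 has 1 match on each strand. Usp18 and Rtp4 were 2.84-fold and 3.25-fold lower, less than Ifit3 (16.9-fold), so carrying the element did not go with 1 size of difference.

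Of the other motifs, the ETS core CCGGAAG was the most common, in 15.5% of promoters, and less common among changed genes, at 8.84% of the higher and 3.66% of the lower. The AP-1 element TGANTCA was in 5.39% of all, 6.71% of higher and 8.96% of lower genes, and the TEAD element ACATTCC in 2.86%, 2.24% and 4.25%. The E-box CACGTG was in 10%, 12.4% and 6.57%. The GAS-like element TTCNNNGAA was in 7.5%, 7.49% and 10.1%, the cyclic AMP element TGACGTCA in 3.28%, 3.24% and 2.16%, and the serum response element in 1.31%, 1.79% and 1.49%. A match describes the letters of a promoter and is not evidence of binding.

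**Figure D4:**
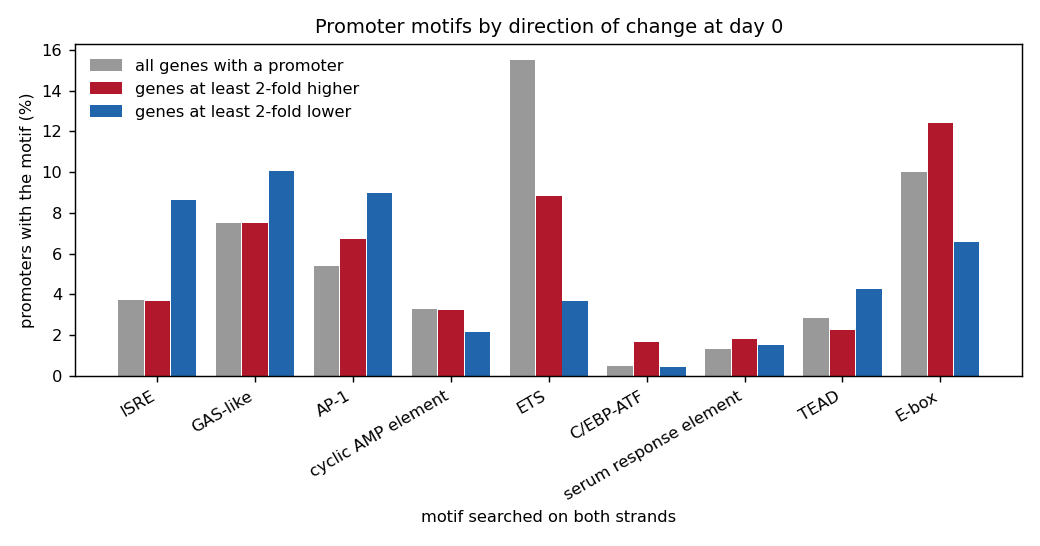
Share of promoters (y axis, %) that hold each of 9 motifs (x axis), for all 12364 genes with a promoter (grey) and for genes at least 2-fold higher (red) or lower (blue) in the FGF8 library. The ISRE stands at 8.66% among lower genes against 3.7% of all, and the ETS core is less common among changed genes.

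Complement is made in part by stromal cells, and 10 of its 13 genes compared were lower, with 1 higher and a median of -3.14. C1s1, a protease of the first complex, went from 27108 to 2566 normalized counts (10.6-fold), and its inhibitor Serping1 from 5025 to 438 normalized counts (11.5-fold). C3 and C4b, the central components, were 13.7-fold and 27.9-fold lower. Masp1, a protease of the lectin pathway, was the higher one, from 404 to 1095 normalized counts (2.71-fold). Chemokines had 9 of 17 lower and 1 higher, led by Cxcl9 (47.5-fold lower) and Cxcl10 (from 4824 to 421 normalized counts (11.5-fold)), both interferon-inducible ligands of CXCR3. Cytokines and their receptors were mixed, 6 of 33 higher and 9 lower. Beside Il33, the epithelial-type cytokine Tslp went from 51.4 to 249.6 normalized counts (4.86-fold) and Il11 from 19.1 to 78.1 normalized counts (4.09-fold), while the receptor gene Lifr went from 1629 to 270.1 normalized counts (6.03-fold). NF-kB target genes had 2 of 18 higher and 4 lower.

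Markers of fat precursors changed unequally. Of 26 preadipocyte and stromal markers 11 were at least 2-fold lower and 1 higher. Pdgfra, the receptor that defines adipocyte progenitors, went from 68261 to 9679.8 normalized counts (7.05-fold), Ly6a, which encodes SCA1, from 28641 to 1516 normalized counts (18.9-fold), and Dpp4, a marker of early interstitial progenitors, had 109 counts and 4. Pi16, another marker of interstitial progenitors, was the member that was higher, from 69 to 542 normalized counts (7.84-fold), although Clec3b and Dpp4 were lower. Cd34 and Thy1 stayed within 2-fold at 15084 and 10476 and at 2773 and 4427. Adipogenic transcription factors moved little, with 2 of 25 higher and 2 lower. Pparg, the master regulator, stood at 245 and 163, Cebpb was 2.04-fold higher, and Zfp521, a repressor of adipogenesis, went from 3292 to 926 normalized counts (3.56-fold). Among 10 adipocyte genes that could be compared, Lpl, lipoprotein lipase, went from 8251 to 2025 normalized counts (4.07-fold) and Fabp4 stood at 165 and 178.

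Most other thermogenic genes did not share the difference in Ucp1. Of 17 thermogenic genes compared 3 were higher (Ucp1, Fgf21 and Prdm16) and 4 lower. Prdm16, a coregulator of brown identity, went from 42.6 to 188 normalized counts (4.42-fold). Dio2, which activates thyroid hormone, went from 304 to 60.2 normalized counts (5.05-fold), Pdk4 from 1481 to 257 normalized counts (5.75-fold), and the coactivator gene Ppargc1a had 33 counts and 12. Cidea, Cox8b and Adrb3 had 0 counts in both libraries, which at a floor of 3 counts allows up to 4.41 normalized counts (untreated) or 3.84 (FGF8). Among receptors and enzymes of cyclic AMP signaling 3 of 22 were higher and 4 lower. Adcy8, a calcium-stimulated adenylyl cyclase, had 0 counts and 109, at least 31.7-fold higher, and Adra2a, the alpha2A adrenergic receptor that opposes cyclic AMP, had 6 and 71.

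Retinoid handling and detoxification differed gene by gene. Of 16 retinoid genes 3 were higher and 7 lower. Retinaldehyde dehydrogenases make retinoic acid, and among them Aldh1a1 had 189 counts and 5, Aldh1a2 went from 507 to 206 normalized counts (2.46-fold), and Aldh1a3 had 13 counts and 215. Detoxification enzymes were lower in 14 of 20 cases, with 1 higher and a median of -1.64. Cyp1b1, a cytochrome P450 of stromal cells, went from 4828 to 484 normalized counts (9.98-fold), Gstm1, a glutathione transferase, from 4533 to 647 normalized counts (7.01-fold), and Fmo1, a flavin monooxygenase, had 220 counts and 3. In the list of NRF2 targets and the pentose phosphate pathway 0 of 20 were higher and 2 lower, while Slc7a11, which is also an NRF2 target, was 23.8-fold higher.

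Genes better known from excitable or embryonic cells supplied several large differences, some of them at few counts. Of 30 potassium channel genes 19 did not pass the filter, and of 44 synaptic and neuronal genes 25 did not. At a mean of 20 to 100 normalized counts, 16.2% of all genes were higher and 21.8% lower. Kcnh1, Kcnn4, Atp2a3 and Tbx2 were under 20 normalized counts without FGF8, and Atp2b4 with it. Of 11 potassium channel genes 4 were higher and 4 lower, with Kcnh1 from 1.47 to 39.7 normalized counts (27-fold) and Kcnn4, a calcium-activated channel of proliferating cells, from 13.2 to 83.2 normalized counts (6.29-fold). In the list of 24 calcium channels and pumps 5 were higher and 3 lower, with the pump gene Atp2a3 from 5.88 to 89.6 normalized counts (15.3-fold) and Atp2b4 from 204 to 10.2 normalized counts (19.9-fold). Of 19 synaptic and neuronal genes 5 were higher and 6 lower, with Gap43, a growth cone protein, from 54.3 to 382 normalized counts (7.02-fold). Semaphorins, plexins and neuropilins had 3 of 26 higher and 6 lower. Among mesenchymal transcription factors 3 of 26 were higher and 6 lower, with Tbx2 from 17.6 to 236 normalized counts (13.4-fold). Hmga2, a chromatin protein of embryonic and proliferating cells, was 12.3-fold higher, and Mest, an imprinted gene of growing adipose tissue, went from 2562 to 58.9 normalized counts (43.5-fold). Of 25 HOX genes, which record body position, 1 was higher (Hoxa7) and 1 lower (Hoxa2), both shares being below those of all genes.

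Grouping all genes by the letters of their symbols gave 84 families with at least 15 members compared, of which 14 had none past 2-fold. The latter included Mrpl, Mrps, Nup, Rad, Vps, Snx and Atg genes. The largest shares of lower members were in the Ifi family (13 of 16), collagens (20 of 32) and Adamts genes (8 of 15). The solute carriers, 209 genes, had 29 higher and 17 lower members, and the zinc finger genes with the symbol Zfp, 345 genes, 6 and 8. Each autosome and the X chromosome held between 25 and 65 higher genes and between 41 and 106 lower ones.

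The libraries of day 3 and day 9, made after the same pretreatment and then differentiation, give the later values of these genes. The 1369 lower genes had median log2 differences of -0.97 at day 3 and -0.83 at day 9. No level filter was set at these days. The same medians were not computed for all genes or for the higher genes, so whether this is particular to the lower genes is not shown. Areg had 1 and 0 counts at day 3 in untreated and FGF8-pretreated cells, and 6 and 4 at day 9. The amino acid genes Asns and Slc7a11 had smaller differences later, with log2 values of 0.77 and 0.62 for Asns at day 3 and day 9, and 0.48 and 0.36 for Slc7a11. Lox stood at -1.56 and -0.76, Igfbp3 at -1.88 and -1.71, and Mx1 at -1.17 and -2.38. Induction medium was added after day 0 to both arms, so the passage of time and induction cannot be told apart.

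**Figure D5:**
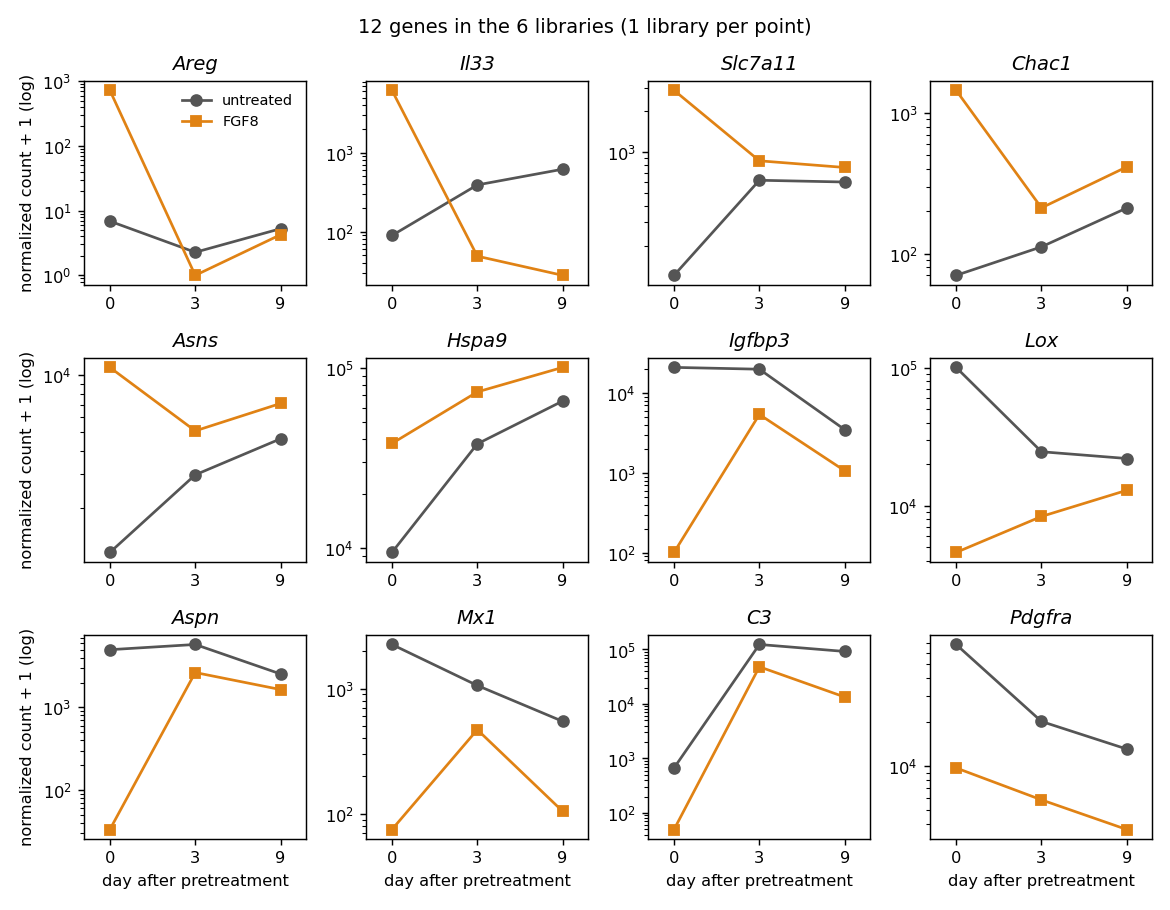
Normalized counts plus 1 (y axis, log scale, 1 scale per panel) of 12 genes on day 0, 3 and 9 (x axis) in untreated (grey circles) and FGF8-pretreated cells (orange squares), 1 library per point. At day 0 the 6 genes Areg, Il33, Slc7a11, Chac1, Asns and Hspa9 are higher with FGF8 and the other 6 lower, and the gap at day 3 is smaller in every panel, with Il33 in the opposite order and Areg at 1 and 0 counts.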

How the data were processed

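The deposited files hold, for each of 6 libraries, raw read counts per gene symbol, which the authors made with Trim Galore, HISAT2 on mm39 and featureCounts. Versions, annotation and strand setting are not given in the sources used here. Size factors by the median of ratios over the 6 libraries scaled the counts (DESeq2 1.42.0, R 4.3.3). With 1 library a side no test was run. The log2 fold change used a pseudocount of 1, and 95% Clopper-Pearson bounds, which are exact, cover counting error only. Genes at a mean of 20 or more were compared, a floor of 3 counts stood in for 0, and 2-fold was the threshold. Python 3.11.15 with pandas 2.3.3, scipy 1.17.1 and matplotlib 3.10.9 did the rest, checked on simulated data. Promoters came from GENCODE in GRCm39 for 12364 genes. Members and gene lists were chosen with earlier results of these data known. Named genes were the 15 largest changes each way at a mean of 100 or more, the 8 largest differences in counts and up to 6 members per list past 2-fold, with its defining members. Others, such as Dcn, Lum, Bgn, Ptprc and Lcp1, were chosen after their values were seen. TMM (edgeR 4.0.16), total-count and pair-only scaling, pseudocounts of 0.5 and 5, other filters and thresholds were tried. Some genes are not reported here.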

Additional observations from a re-analysis of the deposited data

Results flagged for a closer look

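Il33 and Ctsl were picked out because their difference at day 0 was opposite to that at both later days. The log2 difference of Il33 was 6.12 before induction, then -3.00 on day 3 and -4.47 on day 9. That of Ctsl was 1.96, -1.71 and -1.12. The difference between days was not tested, since each condition had 1 library.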

How the results depend on the processing

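The share of lower genes among those past 2-fold, 59.8% (95% exact binomial interval 57.8 to 61.8, over genes, which are not replicates), was 56.3% with total-count scaling, 62.5% with size factors of the pair alone, 55.1% without a filter, 51.3% at 1.5-fold, 69.1% at 4-fold and 64.7% where the counting interval lay past 2-fold. The counts of higher and lower genes were 2331 and 2861 without a filter, 2141 and 2256 at 1.5-fold, 250 and 560 at 4-fold, and 546 and 999 with the interval. They were 892 and 1376 with TMM, 1022 and 1315 with total counts, 811 and 1352 with the pair alone, 927 and 1372 at a pseudocount of 0.5, 879 and 1323 at 5, and 644 and 999 at a mean of at least 100. These scalings moved the median of all genes by -0.03 to 0.06. Of 1190 list counts under 7 of these settings 1111 lay within 1.5 times the value given, and 43 of the 79 that did not came without a filter. Of 2793 gene values 2753 stayed within their counting interval and 0 changed sign past 2-fold. The filter settings leave a gene's value as it is, so 339 and 409 of these values agreed by design. The other settings moved values too little to turn the sign of a 2-fold difference, so the absence of such changes carries no information. Cause was not tested for any of these shifts. Depth limits the low genes, and no replicate exists to measure biological spread. No paired analysis was possible because the day 0 comparison has 1 library a side. A fit of treatment and day over the 6 libraries, which asks about an effect shared by the 3 days, was not run.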

Other observations

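Other gene groups also held members past 2-fold. Of 18 circadian clock genes 4 were higher and 3 lower, with Ciart, a repressor of the clock, going from 29.4 to 246 normalized counts (8.37-fold) and Hlf, an output factor, from 67.6 to 14.1 normalized counts (4.8-fold). In the Notch and Hedgehog list 2 of 16 were higher and 6 lower. Jag1, a Notch ligand, went from 1078 to 141 normalized counts (7.66-fold), Boc, a Hedgehog co-receptor, from 733 to 93.5 normalized counts (7.84-fold), and Hhip, which sequesters Hedgehog ligands, from 69 to 1253 normalized counts (18.2-fold). Axon guidance genes of the ephrin, netrin and slit list had 5 of 24 higher and 7 lower, with the netrin gene Ntn1 from 818 to 2936 normalized counts (3.59-fold) and the ephrin receptor gene Epha4 from 126 to 8.96 normalized counts (14.1-fold). Of 19 p53 target genes 3 were higher and 7 lower, in cells that carry large T antigen in both libraries. Of 33 lysosome and autophagy genes 2 were higher, Ctsl and Ctsc (2.44-fold), and 1 lower, Ctsf (2.07-fold). Both shares, 6.06% and 3.03%, lay below those of all genes.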
